A study of Coturnix japonica with 54 samples.

Results

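The genes described here encode potassium channels. They were taken as every gene whose symbol starts with KCN in the deposited table of CPM (a gene's reads scaled to a common library total), which gave 81 genes of 19916. All 81 had at least 1 read. The symbols cover pore-forming subunits of voltage-gated, calcium- or sodium-activated, inwardly rectifying and two-pore channels, and the auxiliary subunits that bind them. A second deposited table, of estimated read counts per transcript, held 61 KCN genes of 16448, and 58 of them were in both tables.

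Potassium channels let potassium leave the cell and thereby set the resting potential of neurons, end each action potential and pace repeated firing. Neuroendocrine neurons depend on them for the burst patterns that accompany hormone release, and some channel genes are known to respond to sex steroids or to the time of day in rodents. Pore subunits assemble as tetramers (two-pore subunits as dimers), so the mix of subunits and auxiliary proteins fixes the current that a cell carries.

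The samples came from 54 male Japanese quail (Coturnix japonica). Their label gives the mediobasal hypothalamus, which in birds translates day length into hormone release from the pituitary. The birds started under 16 h of light per day, were moved through shortening days to 8 h and then through lengthening days back to 16 h, and spent 2 weeks at each of 9 steps. Groups of 6 birds were taken at each step. The first 4 steps were 16La, 14La, 12La and 10La, the shortest days were 8L, and the last 4 steps were 10Lv, 12Lv, 14Lv and 16Lv. The number in a name is the hours of light, and the letters a and v were read as the declining (autumnal) and the rising (vernal) arm. Genotype, strain and treatment other than light did not differ between groups as far as the labels say, and neither ages nor batches were used here. Each step came later in the study than the one before, so hours of light, time in the study and age cannot be told apart along an arm.

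RNA was copied to cDNA and sequenced on Oxford Nanopore flow cells, 1 library per bird. In the CPM table, 2 libraries of 16Lv were closer to each other than the sampling noise of their read numbers allows to tell apart and were counted as 1 sample, which left 53 libraries and n = 5 in 16Lv. Reads per library ranged from 251382 to 1895615, with a median of 938816. The 6 shallowest libraries, with 251236 to 307060 reads in genes, fell in 6 different groups. In the remaining groups, 12Lv replicate 3 (345338 reads), 8L replicate 3 (376519) and 14La replicate 3 (379260) were nearly as shallow. Each of the 9 groups thus held 1 such library, and the next had 626001 reads. Fits without the 6 shallowest libraries kept those of 12Lv, 8L and 14La. All 6 genes listed as markers of the mediobasal hypothalamus had reads. Among them, NPVF (gonadotropin-inhibitory hormone) and NPY had reads in 53 of 53 libraries and NKX2-1, a transcription factor of this region, in 52. Of the listed pituitary markers, CGA, a hormone subunit gene, had reads in 53 of 53 libraries, at a median of 145 CPM beside 165 for NPY. POMC, listed for both regions, also had reads in 53. PRL, PITX1, POU1F1, TSHB and FSHB had reads in 22, 15, 10, 7 and 1. Whether pituitary tissue was included was not tested. Of 8 neuronal markers, 8 were detected in all 53 libraries, and their summed CPM ranged from 22242 to 55185. Most of that sum was 1 gene, MAP2, with a median of 33241 CPM beside a median sum of 36488.

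The 81 genes together had 84364 reads, which were unevenly spread over roles. Voltage-gated pore subunits (25 genes) held 35.7% of these reads, calcium- and sodium-activated pore subunits (7 genes) 31.5%, and auxiliary subunits (15 genes) 23.5%. The 13 two-pore genes held 5.26%, the 9 silent modifier genes 2.77% and the 12 inward rectifiers 1.33%. A single gene, KCNMA1, had 24199 reads. KCNAB2 had 13466 reads and KCNQ5 6689. For several genes the reads per library fell mostly on repeated steps, such as 20, 40 and 60 for KCNH1 and 12, 24 and 36 for KCNT1. Whether 1 molecule was counted several times was not tested. These numbers therefore do not say how many molecules were sampled, and they may depend on transcript length. For these reasons levels were not ranked between genes.

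A test of group differences was made for the genes with at least 10 CPM in at least 6 libraries, which kept 8268 genes, 34 of them KCN. These were 16 of the 25 voltage-gated pore genes, 4 of the 9 silent modifiers, 5 of the 7 calcium- and sodium-activated genes, 1 of the 12 inward rectifiers, 3 of the 13 two-pore genes and 5 of the 15 auxiliary genes. The other 47 genes fell below this filter and in the CPM table were tested only under looser ones, with 0 called there. They included all 5 KCNE genes, the regulator KCNRG (27 reads) and the silent modifier KCNV1 (23 reads). Log2 changes are from limma on log2(TMM-scaled CPM + 1), where TMM is a between-library scaling. The added 1 understates changes between low levels. The changes are differences of mean logs, so libraries at 0 can make them larger than the group means imply. KCNMA1 in 10Lv against 10La, for example, had means of 399 and 577 CPM and a log2 change of -1.88.

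None of the 34 KCN genes passed an adjusted p of 0.05 in the CPM table in any of 18 comparisons (limma, Benjamini-Hochberg over 8268 genes). The comparisons were any difference among the 9 groups, 8L against 16La, 16Lv against 8L, 16Lv against 16La, the rising against the declining arm, linear slopes on hours of light, 8 single steps and 3 pairs of equal day length. For any difference among groups 0 of 34 KCN genes were called, against 0.0363% of all genes tested. At an unadjusted p under 0.05 the counts were 3 of 34 KCN genes and 3.69% of all genes. The 3 genes were KCNT1 (limma unadjusted p = 0.021), KCNIP1 (limma unadjusted p = 0.0423) and KCNMB2 (limma unadjusted p = 0.0427), and the adjusted p was 0.998 for each. Within the 8 steps, the 3 pairs and the difference between the slopes of both arms, adjusted p-values called 0 KCN genes, and called either 0% or 0.0121% of all genes (1 gene) in each. At an unadjusted p under 0.05 these 12 comparisons held 23 of 408 KCN values, beside 4.27% of all values. Other tools on the reads recovered from the CPM values called 0 KCN genes as well. Over all genes and groups, edgeR called 5 genes, DESeq2 15 and limma-voom 4.

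In 8L against 16La, 0 of 34 KCN genes were called and 0% of all genes. The median log2 change was -0.09 over the 34 KCN genes and 0.01 over all genes, and 14 of the 34 changes were positive, against 51.3% of all. A single KCN gene, KCNK7, had an unadjusted p under 0.05, beside 4.16% of all genes. In 16Lv against 8L, again 0 of 34 KCN genes and 0% of all genes were called, and the medians were -0.03 and -0.04. There, 3 KCN genes had an unadjusted p under 0.05, beside 5.31% of all. In 16Lv against 16La, 0 of 34 KCN genes and 0.0242% of all genes were called, the medians were -0.14 and -0.03, and 2 KCN genes had an unadjusted p under 0.05, beside 5.73% of all. These 3 comparisons share groups pairwise, so they are not independent of each other.

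In the rising arm (10Lv, 12Lv and 14Lv) against the declining arm (10La, 12La and 14La), 0 of 34 KCN genes were called, beside 0.0121% of all genes. The medians were -0.05 for KCN and -0.03 for all genes, and 2 KCN genes had an unadjusted p under 0.05, beside 4.86% of all. On hours of light, 0 of 34 KCN genes and 0% of all genes had a called slope, with 1 KCN gene and 5.08% of all genes at an unadjusted p under 0.05. The standard error of a log2 difference between 8L and 16La ranged from 0.23 for the best measured KCN gene to 1.31 for the worst, with a median of 0.54. A p that missed the threshold therefore does not show that levels were equal, and the intervals below give the sizes that these libraries allow.

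**Figure D1:**
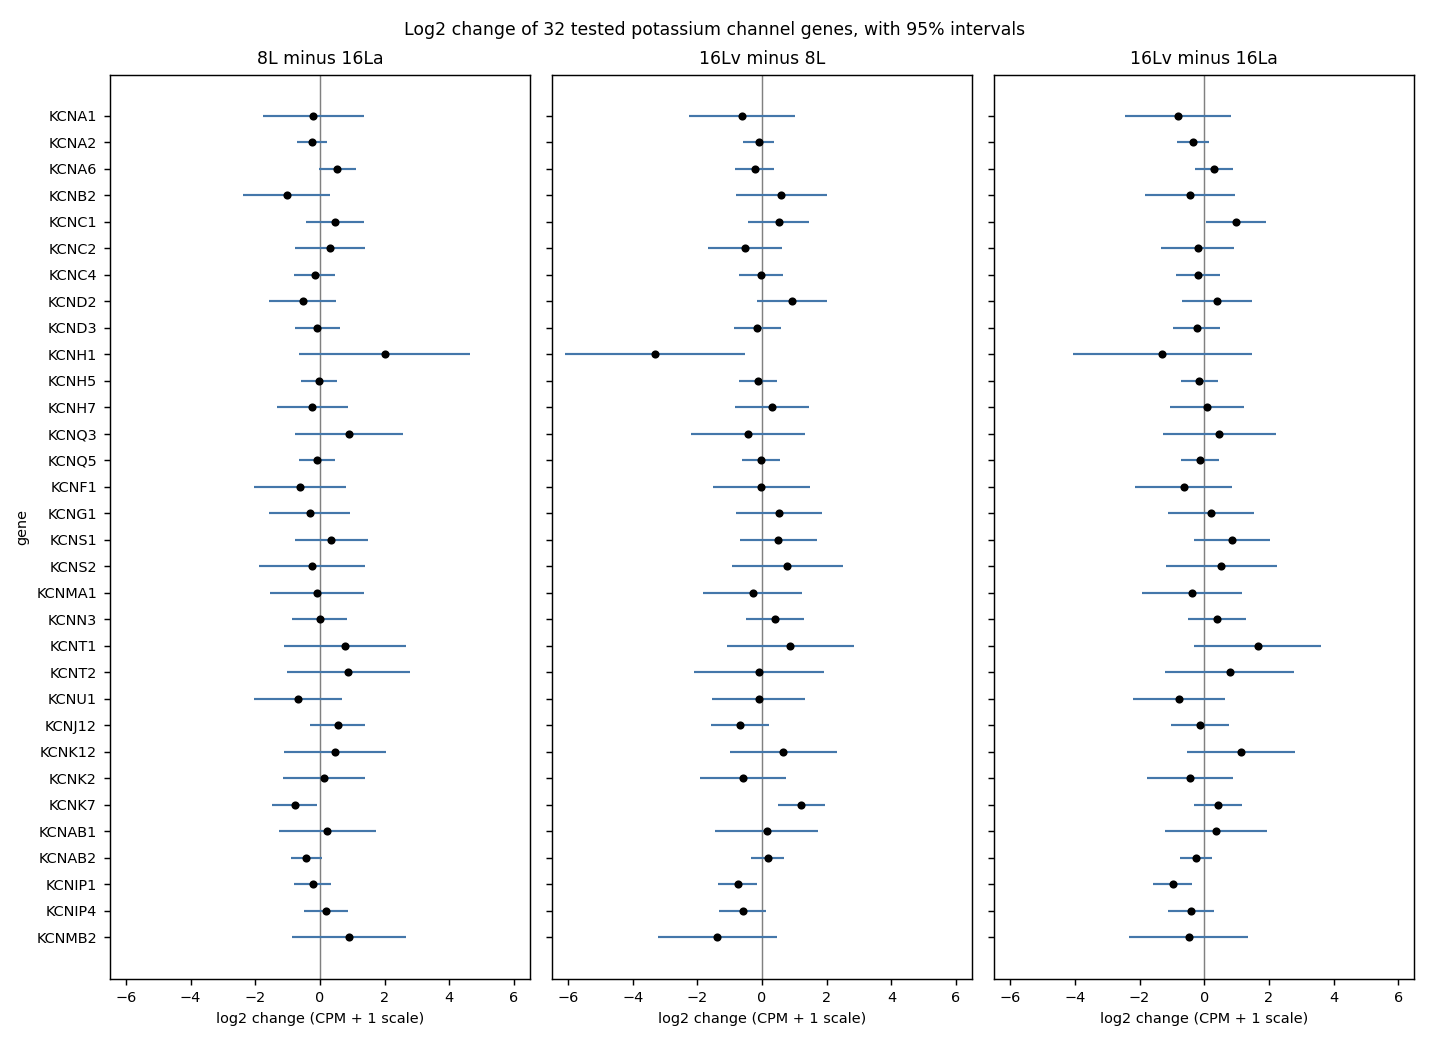
Log2 change of 32 of the 34 tested potassium channel genes (rows, in blocks by role) in 8L minus 16La, 16Lv minus 8L and 16Lv minus 16La; points are limma estimates on the log2(CPM + 1) scale and lines are 95% intervals. Most intervals cross 0, and the widest belong to genes without a read in some libraries, such as KCNH1 and KCNT1.

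**Figure D2:**
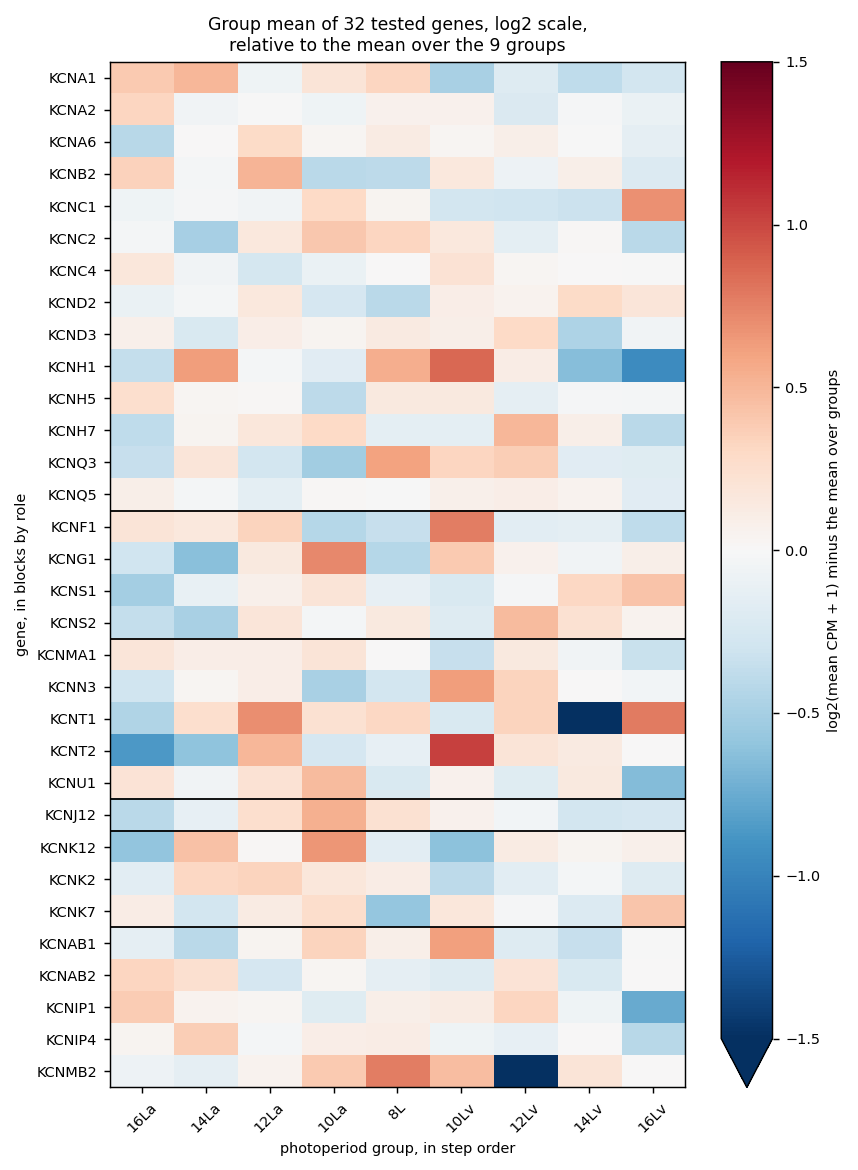
Group means of 32 of the 34 tested genes as log2(mean CPM + 1), each minus its own mean over the 9 groups in step order, with lines between the roles. The colour scale ends at -1.5, and 2 cells lie beyond it, KCNT1 in 14Lv (-1.93) and KCNMB2 in 12Lv (-1.67).

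Among voltage-gated pore subunits, KCNQ3 and KCNQ5 encode subunits of the M-current, a slow current that muscarinic receptors close. KCNQ5 had group means between 119.5 CPM in 16Lv and 144 CPM in 12Lv. Its libraries spanned 71.7 to 200 CPM in 8L (median 135) and 59.7 to 211 CPM in 16La (median 146), so the groups overlapped over nearly their whole range. The log2 change in 8L against 16La was -0.10 (95% interval -0.65 to 0.46). KCNQ3 had a median of 17.1 CPM in 8L and 8.49 CPM in 16La, but 1 library of 8L and 2 of 16La had no read (log2 change 0.90, SE 0.83; limma unadjusted p = 0.283).

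KCNA genes encode channels that open near threshold and sit largely on axons. KCNA2 spanned 49.7 to 99.5 CPM in 8L, with a median of 62.6, and 54.0 to 108 CPM in 16La, with a median of 80.5. It was among the tightest estimates of the family, with a log2 change of -0.24 in 8L against 16La (95% interval -0.71 to 0.22) and -0.11 in 16Lv against 8L (-0.60 to 0.38). KCNA6 had the smallest unadjusted p of the positive changes in 8L against 16La. Its libraries spanned 11.3 to 35.8 CPM in 8L (median 22.6) and 7.96 to 21.2 CPM in 16La (median 17.1), which overlapped. The log2 change was 0.54 (SE 0.28; limma unadjusted p = 0.0651, adjusted p = 0.999). KCNA1 had 327 reads and no read in 6 of 53 libraries.

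KCNB2, which encodes a delayed rectifier of neurons, had 447 reads. Its smallest unadjusted p among single steps was for 10La against 12La (log2 change -1.47, SE 0.66, limma unadjusted p = 0.0322, adjusted p = 0.998), and 2 libraries of 10La had no read.

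KCNC genes encode fast channels that allow high firing rates. In 16Lv the KCNC1 libraries held 197, 71.4, 55.5, 52.5 and 38.5 CPM, and 16La libraries held 3.98 to 79.1 CPM with a median of 53.1. The log2 change in 16Lv against 16La was 0.98 (SE 0.47; limma unadjusted p = 0.0397, adjusted p = 0.843). The 197 CPM value came from a library of 264273 reads and the 3.98 CPM value from a library of 251236, which were among the 6 shallowest. Without the 6 shallowest libraries the log2 change was 0.03 (SE 0.36; limma unadjusted p = 0.937). KCNC2 had no read in 1 library of 14La, and in 12La against 14La it had a log2 change of 1.09 (SE 0.54; limma unadjusted p = 0.0492, adjusted p = 0.999). KCNC4 was read in all 53 libraries, at 6.43 to 32.5 CPM.

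KCND2 and KCND3 encode the A-type channels of dendrites. KCND2 in 16Lv held 11.6, 11.3, 9.89, 9.65 and 5.84 CPM, and 8L held 0 to 10.5 CPM with a median of 6.89. The groups overlapped, and the log2 change was 0.93 (SE 0.54; limma unadjusted p = 0.093). KCND3 in 14Lv had a median of 5.54 CPM and in 12Lv one of 10.3 CPM (log2 change -0.80, SE 0.35; limma unadjusted p = 0.0249, adjusted p = 0.999).

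KCNH genes encode the ether-a-go-go channels. KCNH1 had an uneven pattern: its median over all libraries was 39.5 CPM, yet 11 of 53 libraries had no read. In 16Lv its libraries held 77.1, 17.2, 1.07, 0 and 0 CPM, and in 8L 17.5 to 105 CPM with a median of 53.5. The groups overlapped through 1 library of 16Lv, and the log2 change was -3.31 (95% interval -6.08 to -0.54; SE 1.38; limma unadjusted p = 0.0203, adjusted p = 0.898). In 10Lv the median was 78.2 CPM, with 1 library at 0. KCNH5 was read in all 53 libraries at 5.03 to 24.8 CPM, and its log2 change in 8L against 16La was -0.02 (-0.57 to 0.54). KCNH7 had a median of 32.9 CPM in 8L, where 1 library had no read, and of 24.8 CPM in 16La.

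The silent modifiers KCNF1, KCNG1, KCNS1 and KCNS2 form no channel alone and alter other voltage-gated channels. KCNG1 had medians of 4.59 CPM in 8L and 11.5 CPM in 10La, and 2 of the 6 libraries of 8L had no read. The log2 change in that step was -1.57 (SE 0.63; limma unadjusted p = 0.0159, adjusted p = 1). KCNS1 in 16Lv held 37.0, 34.03, 32.1, 16.1 and 7.71 CPM, and 16La held 7.94 to 17.7 CPM with a median of 12.6. In 16Lv 3 libraries lay above all of 16La and 1 lay below, with a log2 change of 0.86 (95% interval -0.32 to 2.05). KCNF1 had group medians between 4.29 CPM in 16Lv and 16.4 CPM in 10Lv and no read in 5 of 53 libraries. KCNS2 had 352 reads and no call.

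KCNMA1 encodes the BK channel, a large-conductance channel opened by calcium and depolarisation together, and was the member with the most reads. Its group means lay between 399 CPM in 10Lv and 577 CPM in 10La. The 8L libraries held 376 to 821 CPM (median 461) and the 16La libraries 375 to 1134 CPM (median 490). The groups overlapped almost wholly, with a log2 change of -0.09 (95% interval -1.56 to 1.37; limma adjusted p = 0.999). In 16Lv the libraries held 578, 426, 397, 343 and 254 CPM, which overlapped both, and the log2 change in 16Lv against 16La was -0.38 (-1.92 to 1.15).

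The width of those intervals depended on 1 library. In 10Lv replicate 3, KCNMA1 had no read among 292269, while the other 5 libraries of 10Lv held 168 to 731 CPM. A 0 there allows up to 10.3 CPM if each read was a separate molecule (counting error only). In the count table the same bird had 2 summed counts of KCNMA1, and 2 of the 6 libraries of 10Lv had any count. With that library, the log2 change of KCNMA1 in 10Lv against 10La was -1.88 (SE 0.73; limma unadjusted p = 0.0131, adjusted p = 0.938) and in 10Lv against 8L -1.75 (SE 0.73; limma unadjusted p = 0.0203). Without it, these were -0.43 (SE 0.33; limma unadjusted p = 0.193) and -0.31 (SE 0.33; limma unadjusted p = 0.355). The standard error in 8L against 16La was 0.31 without it, with the same log2 change of -0.09 (limma unadjusted p = 0.771). The mean of 10Lv was 399 ± 274 CPM (SD, n = 6) with that library and 478 ± 215 CPM (SD, n = 5) without it.

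**Figure D3:**
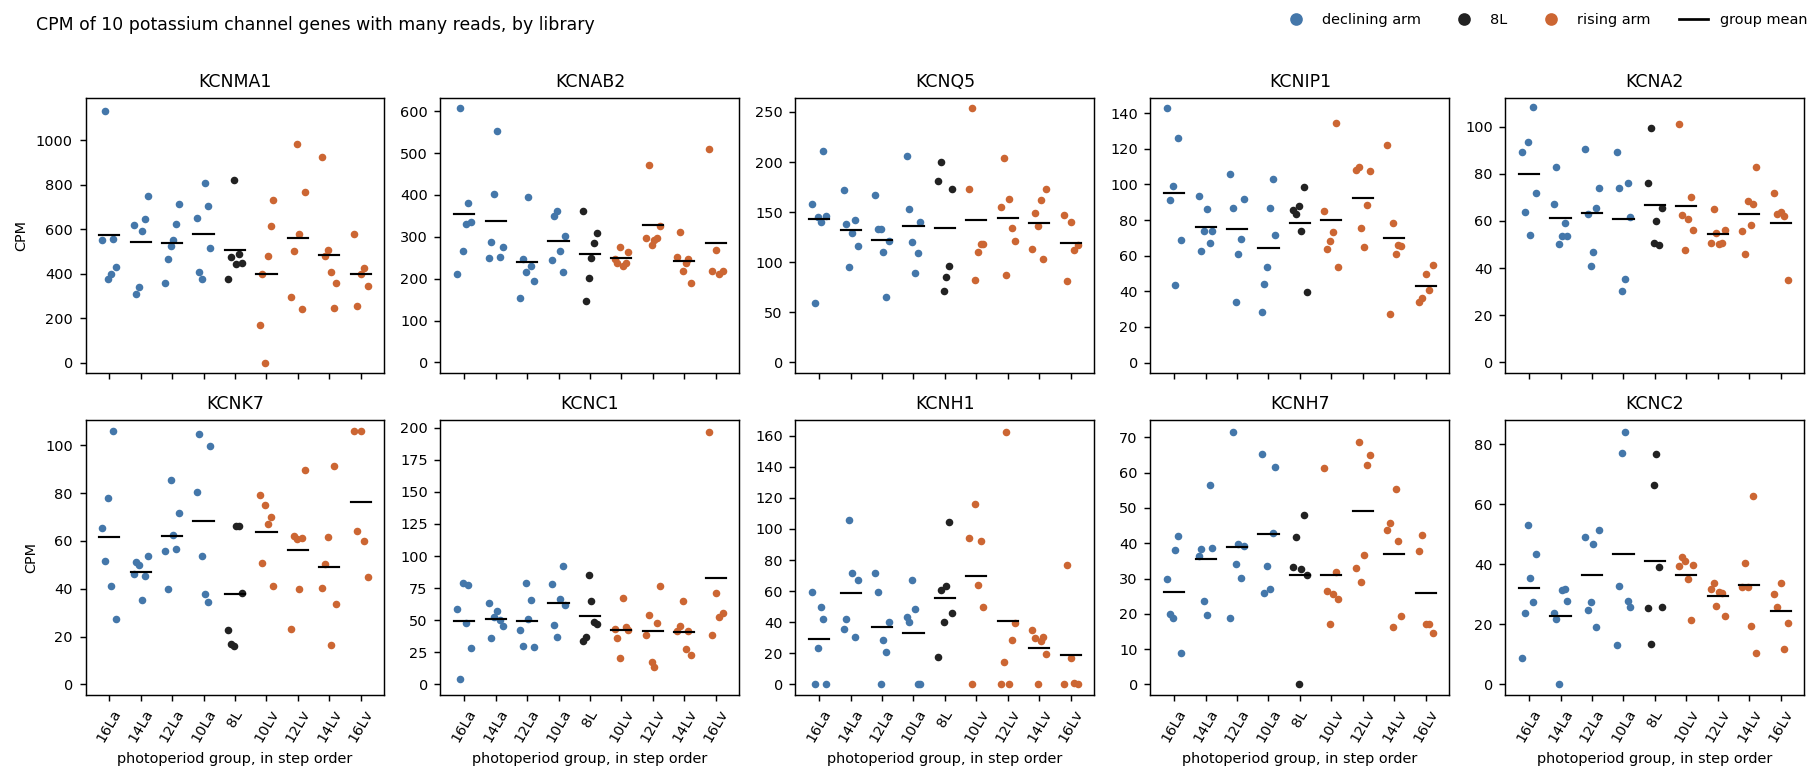
CPM in each library for 10 of the 12 potassium channel genes with the most reads, by photoperiod group in step order; dots are libraries (6 per group, 5 in 16Lv) and bars are group means. The spread within groups covers the differences between group means in nearly all panels, and libraries without a read are visible for KCNMA1 in 10Lv, KCNC2 in 14La, KCNH7 in 8L and KCNH1 in 7 groups.

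KCNT1 and KCNT2 encode channels opened by intracellular sodium. KCNT1 had the smallest unadjusted p of any KCN gene in a single step. In 14Lv 4 of 6 libraries had no read, with a highest value of 17.5 CPM and 29 reads in all. In 12Lv the libraries held 8.69 to 44.6 CPM (median 19.5), and in 16Lv 71.1, 29.5, 29.2, 25.7 and 3.78 CPM. The groups overlapped. KCNT1 had a log2 change of -3.21 in 14Lv against 12Lv (SE 0.94; limma unadjusted p = 0.00124, adjusted p = 0.999) and 3.47 in 16Lv against 14Lv (SE 0.98; limma unadjusted p = 0.000905, adjusted p = 0.846). In 14La, at the same day length on the declining arm, the libraries held 15.7 to 31.6 CPM, and the log2 change in 14Lv against 14La was -3.28 (95% interval -5.16 to -1.40; limma adjusted p = 1). Of the 4 libraries of 14Lv at 0, 1 was among the 6 shallowest and the other 3 held 722230 to 1036654 reads. Those read numbers allow 4.15 to 2.89 CPM if each read was a separate molecule. KCNT1 reads fell mostly on steps such as 12, 24 and 36, and at its median level these 3 libraries would hold 12.2 to 17.45 reads. If each step was 1 molecule, which was not tested, the limits are too low and the zeros rest on few molecules. The adjusted p of 16Lv against 14Lv was between 0.181 and 1 over all alternatives run, the lowest without the 6 shallowest libraries. KCNT2 had 385 reads, no read in 11 of 53 libraries and a single high value of 68.4 CPM in 10Lv.

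KCNN3 encodes a small-conductance channel opened by calcium alone, which produces the slow pause after a burst. Its libraries held 6.39 to 23.9 CPM in 10Lv (median 12.1) and 0 to 9.48 CPM in 10La (median 6.96), which overlapped. The log2 change was 1.27 (SE 0.42; limma unadjusted p = 0.00447, adjusted p = 0.89), and over the 3 pairs of equal day length it was 0.57 (SE 0.24; limma unadjusted p = 0.0239, adjusted p = 0.959). These values rest on 408 reads over all libraries. KCNU1, a relative of KCNMA1 that in mammals is a sperm channel, had 314 reads and a log2 change of -0.78 in 16Lv against 16La (95% interval -2.21 to 0.65).

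Inward rectifiers carry potassium at rest and include the channels that G proteins and ATP control. KCNJ12 was the one member with enough reads to be tested. Its medians were 6.91 CPM in 16La, 8.54 in 14La, 10.4 in 12La, 13.6 in 10La, 12.1 in 8L, 9.85 in 10Lv, 9.33 in 12Lv, 6.96 in 14Lv and 8.74 in 16Lv. The slope over all groups was -0.092 log2 units per hour of light (SE 0.039; limma unadjusted p = 0.0233, adjusted p = 0.943), so it was not called. The lowest median was at the start, under 16 h, and the highest at 10La. The other 11 inward rectifiers had between 6 reads (KCNJ4) and 181 reads (KCNJ6, a G protein-gated channel).

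Two-pore channels carry the background leak. KCNK7, whose mammalian protein is not known to conduct by itself, had 2720 of the 4441 reads of this role. Its libraries held 15.9 to 66.3 CPM in 8L (median 30.4) and 27.4 to 106 CPM in 16La (median 58.6). The log2 change was -0.78 (95% interval -1.48 to -0.09; limma unadjusted p = 0.0284, adjusted p = 0.999). In 16Lv they held 106.2, 105.9, 64.2, 60.1 and 44.8 CPM, which overlapped 8L through the highest 8L libraries, and the log2 change in 16Lv against 8L was 1.21 (0.48 to 1.94; limma unadjusted p = 0.0017, adjusted p = 0.757). In 10Lv against 8L it was 0.84 (SE 0.35; limma unadjusted p = 0.0194) and in 8L against 10La -0.90 (SE 0.35; limma unadjusted p = 0.0124). All 4 of these changes use the same 6 libraries of 8L, of which 3 lay below the lowest 16La library. KCNK12 had medians of 18.2 CPM in 14La and 7.30 CPM in 16La (log2 change 1.54, SE 0.79; limma unadjusted p = 0.0578), and KCNK2, a mechanically gated channel, had 262 reads.

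Auxiliary subunits bind pore subunits from inside the cell or within the membrane. KCNIP1, a calcium sensor bound to KCND channels, had the lowest adjusted p of the family over the 3 comparisons of 8L and the 16 h groups. Its 16Lv libraries held 54.5, 49.9, 40.8, 36.0 and 34.03 CPM, against 43.4 to 143 CPM in 16La (median 95.3) and 39.7 to 98.4 CPM in 8L (median 84.6). Only 1 library of 16La, and 1 of 8L, lay within the range of 16Lv. The log2 change was -0.98 in 16Lv against 16La (95% interval -1.57 to -0.38; limma unadjusted p = 0.00195, adjusted p = 0.534) and -0.75 in 16Lv against 8L (-1.35 to -0.16; limma unadjusted p = 0.0146, adjusted p = 0.898). The adjusted p in 16Lv against 16La was between 0.355 and 0.999 over the alternatives run. Its slope on hours of light was lower on the rising than on the declining arm by -0.22 log2 units per hour (SE 0.065; limma unadjusted p = 0.00133, adjusted p = 0.913), which was not called. KCNIP4 had a log2 change of -0.60 in 16Lv against 8L (SE 0.36; limma unadjusted p = 0.0976).

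KCNAB2, a cytosolic subunit of KCNA channels, was the one tested KCN gene with a pair of groups that did not overlap. Over 14 pairs of groups that made 1 of 476 combinations of KCN gene and pair, beside 0.24% of all such combinations. In 12Lv its libraries held 281 to 471 CPM (median 297), and in 10Lv 230 to 277 CPM (median 243). The lowest 12Lv value (280.88 CPM) and the highest 10Lv value (276.92 CPM) both came from replicate 3, with 345141 and 292269 reads in genes. In those libraries 1 read equals 2.90 and 3.42 CPM, so the gap was little more than 1 read. Reads of KCNAB2 also often fell on repeated steps, such as 135, 144, 153 and 162. Whether 1 molecule was counted several times was not tested. In 12Lv against 10Lv, 0.0726% of all genes were separated in the same direction. The log2 change was 0.48 (SE 0.24; limma unadjusted p = 0.0466, adjusted p = 0.998), and the 14Lv libraries, at 191 to 311 CPM, overlapped both. In 8L against 16La the log2 change was -0.42 (95% interval -0.89 to 0.06).

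KCNMB2, a subunit that makes BK channels inactivate, had medians of 0.875 CPM in 12Lv, where 3 of 6 libraries had no read, and 14.6 CPM in 12La. The 12Lv libraries held 0 to 15.8 CPM and the 12La libraries 3.37 to 27.4 CPM, which overlapped. This gave a log2 change of -2.44 (SE 0.88; limma unadjusted p = 0.00759, adjusted p = 0.952), and of -2.31 in 12Lv against 10Lv (SE 0.88; limma unadjusted p = 0.011). Leaving out the 6 shallowest libraries removed 10Lv replicate 3 but kept 12Lv replicate 3. Both had no read of KCNMB2, so the groups were not treated alike. The log2 change in 12Lv against 10Lv was then -3.05 (SE 0.75; limma adjusted p = 0.353). In 8L all 6 libraries had reads, at 16.3 to 42.5 CPM. KCNAB1 had no read in 3 of 53 libraries and up to 88.9 CPM in 10Lv.

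A library without a read was more common among genes with fewer reads. Of the tested KCN genes, 9 with a median of at least 10 reads per library, KCNMA1 included, had 1 to 11 libraries at 0. KCNH1 had 11, of which 4 were among the 6 shallowest and the other 7 held 678953 to 1128657 reads. At its median level of 39.5 CPM over all libraries, those 7 would hold 26.8 to 44.5 reads. Reads of KCNH1 came mostly in steps of about 20. If each step was 1 molecule, which was not tested, these reads would be few molecules. KCNT1 had 8 libraries at 0, of which 4 were among the 6 shallowest, and KCNMB2 had 7, of which 2 were. Further zeros fell in libraries nearly as shallow, 8L replicate 3 for KCNT1, and 12Lv replicate 3 and 14La replicate 3 for KCNMB2. Over all genes with a median of 10 to 20 reads (1909), 60.7% had a library at 0 and 18.9% had at least 5. Of 7 KCN genes there, 5 had a library at 0 and 3 had at least 5. At a median of 20 to 50 reads (1818 genes) the shares were 37.2% and 6.55%, beside 3 and 1 of 6 KCN genes. At a median of at least 50 reads (1950 genes) they were 11.5% and 0.872%, beside 1 and 0 of 7 KCN genes. That 1 was KCNMA1, whose library at 0 would hold 140 reads at its median level. Whether such zeros are birds without the transcript, too few molecules sampled or losses during counting was not tested.

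**Figure D4:**
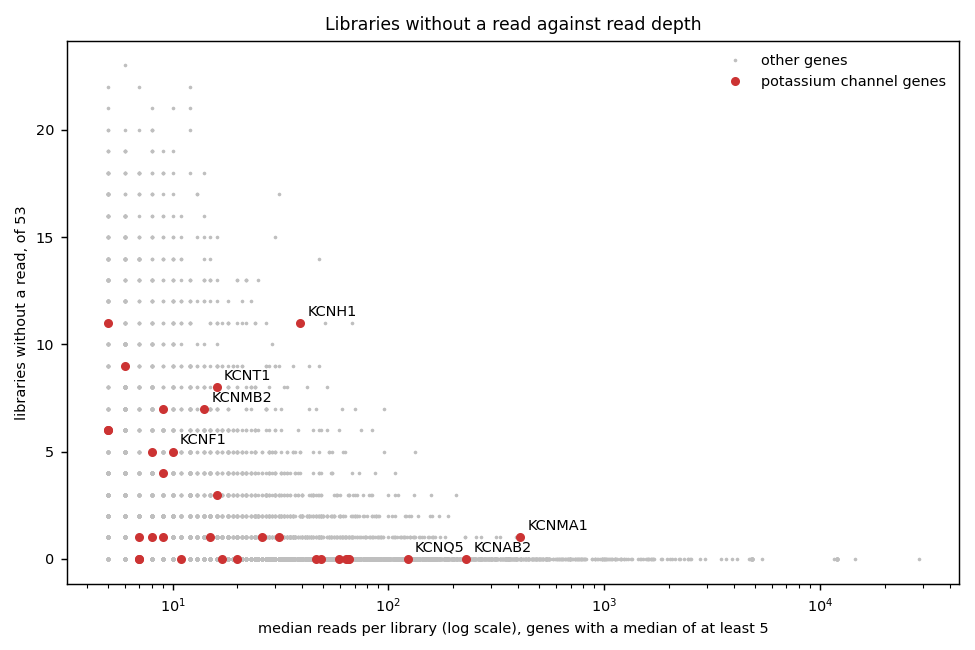
Libraries without a read (of 53) against the median number of reads per library (log axis), 1 point per gene with a median of at least 5 reads; red points are potassium channel genes. KCNH1, KCNT1 and KCNMB2 have 11, 8 and 7 libraries at 0, and KCNMA1, with a median of 408 reads, has 1.

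The summed CPM of all 81 genes overlapped between all groups. Group means lay between 1601 ± 350 CPM in 16Lv (SD, n = 5) and 1907 ± 355 CPM in 16La (SD, n = 6). In 8L the sum was 1748 ± 102.96 CPM (SD, n = 6). By role, the voltage-gated pore genes summed to group means of 559 CPM (14Lv) to 677 CPM (10Lv), the calcium- and sodium-activated genes to 452 CPM (16Lv) to 624 CPM (10La) and the auxiliary genes to 366 CPM (14Lv) to 503 CPM (16La). KCNMA1 and KCNAB2 were the largest contributors by reads.

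Genes that work with potassium channels were looked at from lists that held 5 kinds: channel partners not named KCN, HCN and cyclic nucleotide gated channels, voltage-gated sodium channels, voltage-gated calcium channels, and the sodium potassium pump with chloride cotransporters. Of 11, 3, 9, 10 and 6 genes tested, 0 were called in 8L against 16La, 16Lv against 8L, 16Lv against 16La, rising against declining, the slope and the test among groups (limma). For the calcium channels, 9 of 10 changes were positive in the rising against the declining arm, against 45.8% of all genes, with a median log2 change of 0.57, against -0.03 over all genes. At an unadjusted p under 0.05 were 2 of the 10, beside 4.86% of all genes. The direction was not kept in other comparisons. Of the same 10, 7 were positive in 8L against 16La (median 0.12), 2 in 16Lv against 8L (-0.39) and 2 in 16Lv against 16La (-0.31). Over all genes these shares were 51.3%, 45.4% and 46.8%. For the sodium channels the median in the rising against the declining arm was 0.05, with 5 of 9 positive and 0 at an unadjusted p under 0.05. Of 5 oligodendrocyte markers, 4 had an unadjusted p under 0.05 in the same comparison, beside 4.86% of all genes. Their median was -0.29, 1 of the 5 was positive and 0 were called. The summed CPM of 6 such markers had group medians of 5802 to 8859. In the other marker lists, the same threshold was met by 0 of 8 neuronal, 2 of 7 astrocyte and tanycyte and 0 of 4 microglial markers. It was met by 0 of 2 endothelial and pericyte, 1 of 2 pituitary and 1 of 6 hypothalamic markers, and 0 were called. The part of any of these cell types in the KCN values was not tested. In bulk tissue, fewer cells of a type and less RNA per cell cannot be told apart.

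The table of estimated counts gave another profile. It held 2652857 counts in all, against 48195688 reads recovered from the CPM table, so raw totals are not on the same scale. It held 36000 counts of PRL (prolactin), a pituitary hormone, beside 32 of NPY. The CPM table held 39 reads of PRL and 8194 of NPY. POMC, another pituitary hormone gene, which the hypothalamus also expresses, had 51567 counts against 1329 reads, and VIP 6 counts against 2461 reads. CGA was abundant in both, with 12442 counts and 6701 reads. Library totals also differed between the tables. The library with the most reads in the CPM table, 12La replicate 5 (1895615), had 15174 counts. The one with the fewest, 16La replicate 2 (251382), had 84510 counts. Whether both tables come from the same reads is not given in the labels and was not tested. Levels set across them are therefore a description only, and they are not 2 measurements of the same reads as far as is known. KCNJ3, a G protein-gated inward rectifier listed with 1 transcript, had 190 counts in 46 of 54 libraries and averaged 0.858 CPM in the CPM table. KCNJ1, a rectifier known from the kidney, had 220 counts (112 as the highest single transcript) against 25 reads. KCNAB2 had 128 counts against 13466 reads. KCNE2, a small membrane subunit, had 281 counts over 3 transcripts, and in the CPM table it had 0 reads in 16Lv and in 10La.

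Only 3 KCN genes passed the abundance filter of the count table, in which 826 genes were tested: KCNMA1, KCNIP4 and KCNE2. The filter used counts summed over transcripts. By the highest single transcript in each library, they held 65, 133 and 94 counts. KCNJ3, with 1 transcript and 190 counts, was not among the genes tested. By edgeR's quasi-likelihood test over 54 libraries, 0 of 3 were called in any of 18 comparisons. Of all genes, 0.484% were called in 8L against 16La and in the test among groups, 0.242% in 16Lv against 8L and 0.605% for the slope. The shares in the other comparisons were 0%, 0.121% or 0.363%. At an unadjusted p under 0.05, 1 of the 3 (KCNMA1) passed in 8L against 16La, beside 4% of all genes. Over the 18 comparisons 5 of 54 KCN values did, beside 4.67% of all values. All 5 were of KCNMA1. They came from the test among groups, 8L against 16La, 16Lv against 16La, 8L against 10La and 10Lv against 8L. These share groups, so the 5 values are not independent. KCNIP4 had 79 counts in 8L and 75 in 16La (log2 change 0.60, SE 0.80; edgeR adjusted p = 0.998). KCNE2 had 33 counts in 8L and 27 in 16La (log2 change 0.89, SE 1.03; edgeR adjusted p = 0.998). By the highest single transcript in each library, KCNIP4 held 16 counts in 8L and 13 in 16La, and KCNE2 11 and 9. The summed counts may therefore not be independent, and the standard errors do not allow for that.

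KCNMA1 was spread over 50 transcripts in that table. Its summed counts were 287 in 16La, 205 in 14La, 359 in 12La, 224 in 10La, 2 in 8L, 52 in 10Lv, 56 in 12Lv, 159 in 14Lv and 8 in 16Lv. Libraries with a count numbered 6, 5, 5, 4, 1, 2, 1, 4 and 2 of 6 in that order. In 8L the libraries held 0, 0, 0, 2, 0 and 0 summed counts, and in 16La 5 to 136 with a median of 27, and the groups did not overlap, as in 0.847% of all genes tested there in the same direction. The fitted log2 change in 8L against 16La was -6.26 (SE 1.79; edgeR unadjusted p = 0.000987, adjusted p = 0.136), and in 16Lv against 16La it was -4.20 (SE 1.59; edgeR adjusted p = 0.423). Neither was called. For 8L against 16La the call depended on the fit: the adjusted p was 0.0363 in DESeq2, and in edgeR 0.0318 with only these groups fitted, 0.000627 with no filter on low counts and 0.0442 without replicate 4 of 10Lv, a group outside the comparison. It was 0.453 in limma-voom, and the range over all alternatives was 0.000627 to 0.755.

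Many transcripts of KCNMA1 held the same small count in a library. Whether 1 read was counted at several transcripts was not tested. In the library of 12La with 180 summed counts, 49 transcripts had a count and none had more than 5. In a library of 10Lv with 50 summed counts, each of the 50 transcripts had 1. Taking the highest single transcript in each library, KCNMA1 had 65 counts in place of 1352. The group values were then 13 in 16La, 13 in 14La, 15 in 12La, 7 in 10La, 1 in 8L, 2 in 10Lv, 3 in 12Lv, 9 in 14Lv and 2 in 16Lv. The share of 8L over that of 16La was 0.136, with an exact binomial 95% interval of 0.00319 to 0.903 that covers counting error only, and edgeR on those highest counts over all genes, with no filter on low counts, gave an adjusted p of 0.755. Median library totals were 43382 counts in 8L and 75566 in 16La, and the part of that difference in the result was not tested. In the CPM table, 2718 reads of KCNMA1 in 8L and 2925 in 16La gave the log2 change of -0.09 described above.

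**Figure D5:**
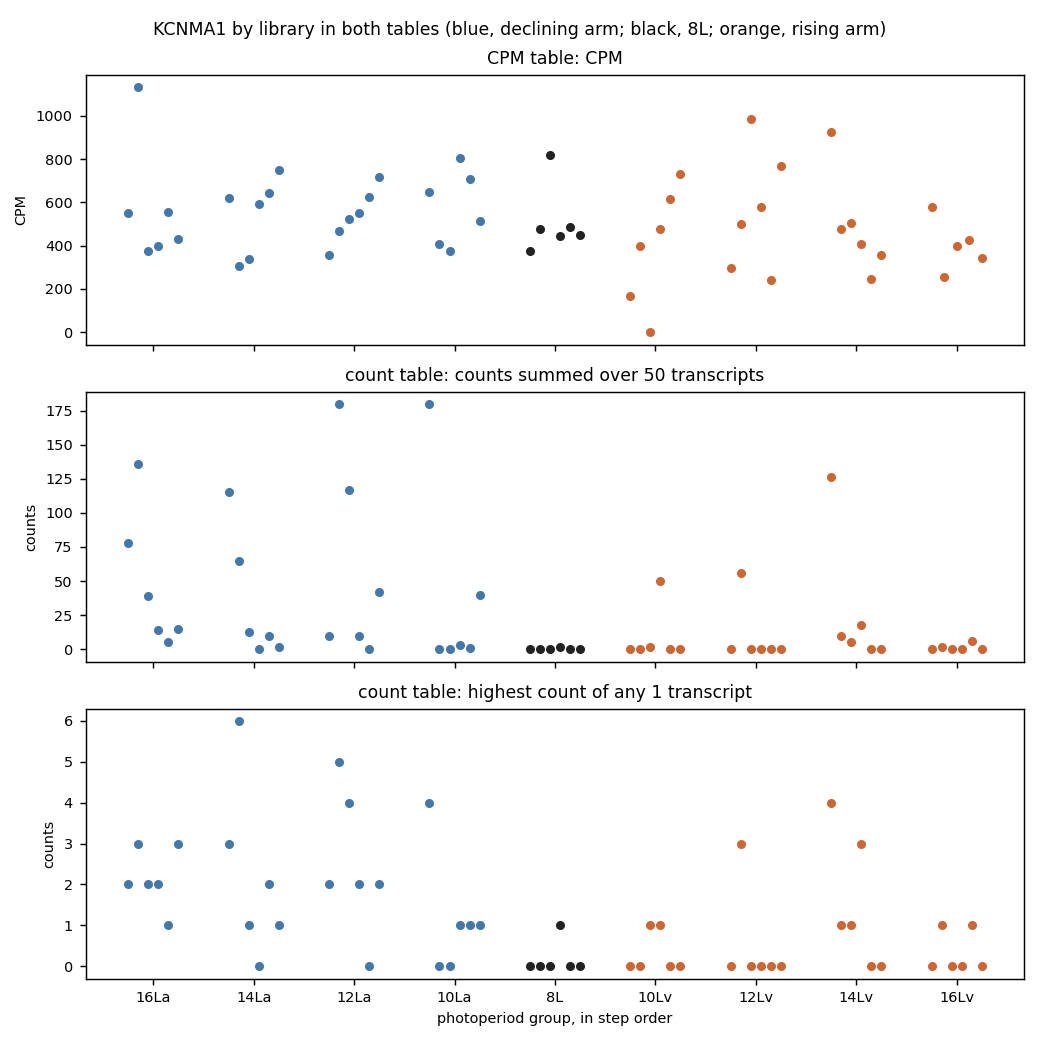
KCNMA1 in each library by photoperiod group: CPM in the CPM table (top), counts summed over 50 transcripts in the count table (middle) and the highest count of any 1 transcript (bottom). The 8L libraries hold 376 to 821 CPM at the top and 0 to 2 summed counts in the middle, and no library exceeds 6 counts at the bottom.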

How the data were processed

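RNA of 54 quail was sequenced by Oxford Nanopore direct cDNA sequencing, per the labels' protocols. The authors deposited 1 table of CPM per gene and 1 of estimated counts per transcript. Per the submitters' processing notes, edgeR 3.24.3, Salmon 0.14.2 and minimap2 2.17 were used. What each did and which assembly was used is not given in the sources used here. In the CPM table, 14 date-like names were left out, and 99.7% to 100% of values per library were whole reads within 0.1 read once divided by the most common positive value. Replicates 3 and 6 of 16Lv (chi-square per degree of freedom 0.977, next pair within a group 6.62) were averaged there. The CPM table was tested with limma 3.58.1 (trend) on log2(TMM-scaled CPM + 1), since its unit calls for no count model, and the estimated counts, summed per gene and rounded, with edgeR 4.0.16 (R 4.3.3). DESeq2 1.42.0 was an alternative. Calls needed an adjusted p (Benjamini-Hochberg, within each comparison) under 0.05. Unadjusted p-values only rank genes. The edgeR and limma scripts were tested on simulated data.

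Genes named are those with the smallest p per comparison, the gene with the most reads per subfamily, KCNMA1, and the count-table genes with the most counts; further genes were named after their values were seen. Members, roles and lists were chosen with earlier results of these data known. Of the 81 symbols, 72 are in the RefSeq table of the species. No sequences were used here. Some genes are not reported here by name and are not drawn, but stay in the counts. Nothing in the labels pairs birds, and 1 bird is 1 replicate. Limits from a count of 0 use 3 counts and cover counting error only. They take each read as a separate molecule and are too low where 1 molecule was counted several times.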

Additional observations from a re-analysis of the deposited data

Results flagged for a closer look

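The 14 KCN genes with at least 1000 reads in the CPM table, and KCNMB2 and KCNN3 (added after their values were seen), gave 144 combinations of gene and group. In 13 of them the highest or lowest library stood apart from the rest of its group by Dixon's criterion. Chance flags about 1 in 20 groups of independent, normally distributed values. The CPM values here hold zeros and repeated steps, and shallow libraries recur across genes, so that rate need not apply. No explanation was tested for any of them.

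Among auxiliary subunits, KCNAB2 had 510.41 CPM in 16Lv replicate 1, where the next library held 269.53 CPM, and 471.07 CPM in 12Lv replicate 2 (next 325.64 CPM). KCNMB2 had 65.081 CPM in 14Lv replicate 3 (next 23.135 CPM). For the BK channel gene KCNMA1, the high libraries were 16La replicate 2 at 1133.7 CPM (next 553.8 CPM) and 8L replicate 3 at 820.68 CPM (next 486.94 CPM).

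Among voltage-gated pore genes, KCNA2 was low at 35.04 CPM in 16Lv replicate 5 (next 62.2 CPM), and KCNC1 was high at 196.6 CPM in 16Lv replicate 1 (next 71.353 CPM). KCNC2 was low at 0 CPM in 14La replicate 3 (next 21.758 CPM) and at 21.509 CPM in 10Lv replicate 5 (next 35.144 CPM). KCNH1 was high at 162.16 CPM in 12Lv replicate 3 (next 39.471 CPM) and at 77.06 CPM in 16Lv replicate 2 (next 17.22 CPM). KCNH7 was low at 0 CPM in 8L replicate 3 (next 31.099 CPM) and high at 61.321 CPM in 10Lv replicate 1 (next 31.796 CPM).

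Of the libraries named, 16Lv replicate 1 held 264273 reads in genes, 16La replicate 2 251236, 14Lv replicate 3 307060, 12Lv replicate 3 345141, 8L replicate 3 376256 and 14La replicate 3 379018. The part of depth in these values was not tested.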

How the results depend on the processing

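In the CPM table, 0 KCN genes were called in 1150 combinations of an alternative fit and a comparison. The fits changed the pseudocount, the scaling, the filter, the tool, the groups fitted or the treatment of the 2 near-identical libraries. Others left out the 6 shallowest libraries or 1 library at a time. The lowest adjusted p was 0.181 (KCNT1 in 16Lv against 14Lv, without the 6 shallowest libraries, limma). In the count table, 8 of 1060 such combinations called a KCN gene, against 0 in the fit reported. Most of the 1060 left out 1 library, so this share does not say how far a call depended on the tool or filter. All 8 were in 8L against 16La or came with no filter on low counts. With no filter on low counts, edgeR called 13 of 61 KCN genes for any difference among groups, beside 1449 of all 16442 genes, with KCNMA1 (adjusted p = 8.59e-06) the lowest, and 1 KCN gene each in 8L against 16La (KCNMA1, log2 change -6.39), 16Lv against 16La (KCNMA1, -4.59), 8L against 10La (KCNMA1, -5.37) and 12La against 14La (KCNT1, 4.39). In the same 4 comparisons 24, 32, 2 and 55 of the 16442 genes were called. In 8L against 16La, KCNMA1 was also the 1 KCN gene called by DESeq2 (-6.66), beside 7 of all 826 genes, and with only the groups compared (-6.35), beside 4 of 826. Leaving out 1 library at a time gave 0 to 1 called genes there, the 1 without 10Lv replicate 4 (-6.28), and 0 in the other comparisons. An alternative chosen after seeing the data took the highest transcript count per gene and also applied no filter, so it changed both. There KCNMA1 had a log2 change of -2.65 in 8L against 16La (edgeR adjusted p = 0.755). The cause of these changes was not tested. None of the named genes' values reversed its sign past the threshold. No paired analysis was run, since nothing in the labels pairs birds. The titles number the samples in a run within each group, and the replicate numbers used here follow the order of the samples. In most groups the shallowest library was replicate 3. Whether that order reflects handling was not tested. The filter on low values left out 47 of 81 KCN genes in the CPM table. With a filter of at least 2 CPM in at least 6 libraries 61 were tested, and with none 81, with 0 called in each.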
